A study of Mus musculus with 3 samples.

Results

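The data describe Lgr5-positive cells in mouse small-intestinal organoids of 3 genotypes. A cell was counted as Lgr5-positive when its barcode occurred in only 1 library, it held at least 10000 UMIs (unique molecular identifiers, each marking 1 captured RNA molecule) with at most 20% from mitochondrial genes, and it kept at least 1 Lgr5 UMI after being thinned at random to 10000 UMIs. There were 1604 such cells among 5300 equally deep cells, out of 34185 deposited barcodes. They numbered 116 of 1208 deep cells in WT, 481 of 2161 in LApc and 1007 of 1931 in LApcL, and the other 3696 deep cells, with 0 Lgr5 UMIs of 10000, served as the comparison within each library. The cells were thus chosen by their Lgr5 UMIs, whose level in the same 10000 UMIs is given as a description only. Other genes were measured in the same cells and are also described with no test.

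All 3 libraries came from organoids of C57BL/6 mice that were 7 to 8 weeks old when tamoxifen was given, per the labels as 2 doses of 2 mg, and the cultures were taken at passage 3 on day 6. For WT organoids, labelled as wild type, the labels give 21 days after tamoxifen. LApc organoids (Lgr5-CreERT2;Apc fl/fl, 29 days) came from mice in which tamoxifen activates a Cre recombinase in Lgr5-expressing cells and so targets both copies of Apc, the scaffold of the complex that degrades beta-catenin. LApcL organoids (21 days) carried the same Cre and Apc alleles and in addition Lef1 fl/fl, floxed alleles of one of the Tcf/Lef factors through which beta-catenin acts on genes. Cre came from an EGFP-IRES-CreERT2 cassette in the Lgr5 locus, so LApc and LApcL mice carried an altered Lgr5 allele. The labels do not say whether the WT mouse carried it too (in another experiment the study called mice with this cassette alone WT), and any part of this in the Lgr5 levels was not tested. There was 1 library per genotype, so no difference between genotypes has a replicate check, no p-value was computed, and genotype cannot be told apart from culture, day or library. All intervals below are exact at the 95% level and cover counting error only.

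Lgr5 is a receptor for R-spondins, secreted proteins that strengthen Wnt signalling by removing the ubiquitin ligases Rnf43 and Znrf3, which otherwise clear Wnt receptors from the cell surface. In the small intestine Lgr5 marks the dividing crypt base columnar stem cells, which lie between Paneth cells and give rise to enterocytes, goblet cells, enteroendocrine cells and Paneth cells. Lgr5 is also a target of beta-catenin and Tcf/Lef factors, as are feedback inhibitors of the pathway such as Axin2, Nkd1 and Notum. When Apc is lost, this target programme no longer depends on Wnt ligands. The gene lies on mouse chromosome 10, from 115450311 to 115587780 on the minus strand of GRCm38.

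Markers placed the cells in the epithelium in each library. All 7 epithelial identity genes, among them the adhesion gene Epcam and the keratin Krt8, reached 50 CPM (UMIs per 1000000, from the summed thinned UMIs of a cell group) in all 3 libraries, whereas none of 9 immune and stromal markers did and their summed level in Lgr5-positive cells was 2.59, 1.04 and 2.48 CPM in WT, LApc and LApcL. The 8 endothelial markers summed to 32.8, 24.9 and 20.6 CPM in Lgr5-positive and to 64.7, 35.4 and 21.8 CPM in Lgr5-zero cells. Of these, Lyve1 in WT zero cells (52.7 CPM) was the 1 that reached 50 CPM, while the defining marker Cdh5 was at 0 in WT positive cells and at 3.12 and 0.0993 CPM in those of LApc and LApcL. The median of UMIs before thinning was 36589 in Lgr5-positive and 38316.5 in Lgr5-zero cells of WT, 34669 and 34303 in LApc, and 30704 and 34931 in LApcL. The median mitochondrial share was 9.77% and 10.6% in WT, 6.42% and 5.50% in LApc, and 6.74% and 5.98% in LApcL. Barcode strings present in several libraries, 29.0%, 30.3% and 27.3% of the deposited ones, were left out by the rule. Levels of the targeted genes do not check the labels here. Lef1 stood at 63.8 CPM in Lgr5-positive LApc cells and 61.6 CPM in LApcL cells, and Apc at 27.6 CPM in WT, 94.0 CPM in LApc and 98.5 CPM in LApcL. The libraries were made with a 3′ kit, and where the floxed exons lie relative to the counted 3′ ends is not given in the sources used here.

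Lgr5-positive cells made up 9.60% (95% interval 8.00 to 11.4) of deep cells in WT, 22.3% (20.5 to 24.1) in LApc and 52.1% (49.9 to 54.4) in LApcL. Most of them carried a single Lgr5 UMI of 10000, namely 81 cells in WT, 327 in LApc and 526 in LApcL. At least 4 UMIs were found in 4 WT cells, 26 LApc cells and 122 LApcL cells. The highest number in a cell was 9, 8 and 11 UMIs. Over all deep cells Lgr5 stood at 14.1 CPM in WT, 34.0 CPM in LApc and 102 CPM in LApcL. The order of the libraries was the same at 1, 2, 3 and at least 4 UMIs, and the intervals of the shares did not overlap between libraries. Without thinning, Lgr5 UMIs were seen in 21.2%, 44.8% and 79.1% of the deep cells, so the share depends on the depth per cell while its order does not. It also depends on which other cells are counted. Without cells in which enterocyte, Paneth or goblet cell markers took at least 1% of UMIs and without Npy-positive cells, the shares were 20.3% in WT, 22.9% in LApc and 52.8% in LApcL, so most of the gap between WT and LApc was no longer there.

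**Figure D1:**
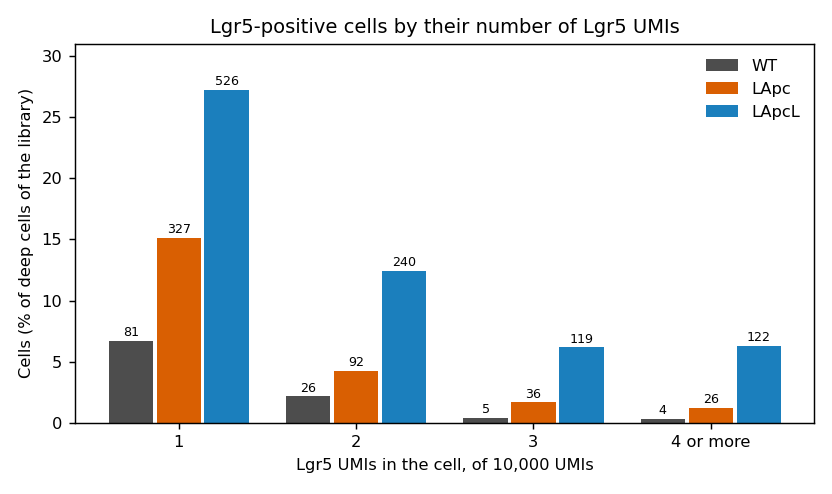
Share of deep cells of each library (y axis, %) by the number of Lgr5 UMIs in 10000 UMIs of the cell (x axis), with the number of cells above each bar. Among cells with at least 1 UMI, LApcL is highest and WT lowest in every class, and cells with 1 UMI form the largest of these classes in all 3 libraries.

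Because 1 UMI can be a chance draw, Lgr5 was counted again in a second, disjoint set of 10000 UMIs of the same cells, available for cells with at least 20000 UMIs. In WT the mean was 0.861 Lgr5 UMIs (0.695 to 1.05) in 108 positive cells and 0.0919 (0.0739 to 0.113) in 979 zero cells, a ratio of 9.37 (6.93 to 12.7). In LApc it was 0.916 (0.827 to 1.01) in 427 cells and 0.185 (0.163 to 0.208) in 1425 cells, a ratio of 4.96 (4.23 to 5.82). In LApcL it was 1.31 (1.23 to 1.39) in 794 cells and 0.555 (0.502 to 0.611) in 739 cells, a ratio of 2.37 (2.11 to 2.66). The positive cells were thus higher in UMIs that had not chosen them in every library, and the gap was smallest in LApcL. The order of WT and LApc depended on the differentiated cells: without these and the Npy-positive cells the log2 ratio was 1.89 in WT, 2.36 in LApc and 1.21 in LApcL, against 3.23, 2.31 and 1.24 over all deep cells.

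The zero cells were not free of Lgr5. The second set held an Lgr5 UMI in 6.95% of WT, 14.6% of LApc and 35.6% of LApcL zero cells, and the mean in LApcL zero cells was close to that of WT cells with 1 UMI in the first set, 0.575 (0.415 to 0.778). WT cells with at least 3 UMIs in the first set, only 9 in number, had 2.33 UMIs (1.44 to 3.57) in the second set, against 1.96 (1.60 to 2.38) in 53 LApc and 1.97 (1.77 to 2.19) in 175 LApcL cells. At this upper end the intervals of the 3 libraries overlapped.

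**Figure D2:**
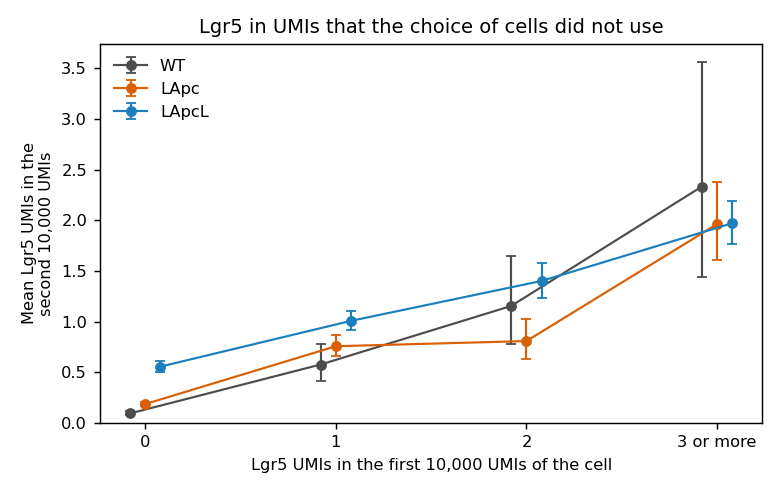
Mean Lgr5 UMIs in a second set of 10000 UMIs (y axis) by the number of Lgr5 UMIs in the first set (x axis), with exact 95% Poisson intervals for counting error. Cells at 0 in the first set averaged 0.0919 in WT, 0.185 in LApc and 0.555 in LApcL, and the 3 libraries came together at 3 or more UMIs.

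Free RNA in droplets can also give Lgr5 UMIs. In WT cells in which enterocyte markers took at least 1% of UMIs, differentiated cells that should lack Lgr5, 13 of 697 cells (1.87%, 0.997 to 3.17) were Lgr5-positive, with a median of 40311 UMIs before thinning. In the other WT deep cells it was 103 of 511 (20.2%, 16.8 to 23.9), with a median of 35486 UMIs. At 1000 UMIs per barcode, 0.107% of WT, 0.0883% of LApc and 0.0419% of LApcL barcodes that occur in all 3 libraries had an Lgr5 UMI, against 1.32%, 3.15% and 10.3% of barcodes found in 1 library. The median UMIs before thinning of the barcodes in all 3 libraries were 2395, 1896 and 1980, and of those in 1 library 8170, 24632.5 and 10268. The intervals of the shares did not overlap between these barcode classes in any library. The classes differ in depth before thinning and may hold different cells, so this comparison does not measure free RNA in the organoid droplets.

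Other states went with the Lgr5 class to different degrees. In WT, 20.6% (16.8 to 24.9) of the 412 cells with a UMI of Smoc2, a secreted matrix protein of crypt base cells, were Lgr5-positive, against 3.89% (2.66 to 5.48) of the other 796 cells. The same shares were 27.4% and 12.5% in LApc and 53.5% and 43.3% in LApcL. Cells with Mki67, a marker of cycling cells, were Lgr5-positive in 16.9% (12.7 to 21.8) of WT cases against 7.42% (5.82 to 9.30) of cells without it, but the shares were 24.6% and 21.4% in LApc and 51.7% and 52.5% in LApcL, with overlapping intervals. For Nkd1, an inhibitor of Wnt signalling that acts on Dishevelled, the direction differed: 19.3% (17.4 to 21.2) of LApc cells with it were Lgr5-positive against 31.8% (27.8 to 36.1) of those without, while in LApcL it was 55.3% (52.6 to 57.9) against 44.2% (39.9 to 48.5).

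In WT, Lgr5-positive cells carried more of the crypt base programme and less of the enterocyte programme. Of 2884 genes with at least 50 CPM in either class, 13.3% (383 genes) were higher past 1.5-fold and 12.9% (373 genes) were lower, which is the background for the counts that follow. A member that reached 50 CPM only in the class where it is high could hardly come out otherwise, so each list is given by its sum over all members and by the members at 50 CPM in both classes. The 20 crypt base stem cell markers summed to 2208 CPM in positive and 755 CPM in zero cells. Of the 11 compared, 6 reached 50 CPM only in the positive cells, and the 5 at that level in both classes were all higher past 1.5-fold. The 12 enterocyte markers summed to 4190 and 22388 CPM, and the 6 at 50 CPM in both classes were all lower. The 9 enteroendocrine markers summed to 195 and 2848 CPM and the 8 goblet cell markers to 1189 and 1905 CPM, with 1 of 1 and 2 of 4 members at 50 CPM in both classes lower. Both sums rest on few cells. Enteroendocrine markers took at least 1% of UMIs in 1 positive and 35 zero cells (0.862% and 3.21%). Goblet cell markers did so in 3 and 33 cells, a similar share of each class (2.59% and 3.02%). The 10 Paneth cell markers went the other way, at 769 and 263 CPM, most of it Itln1. The lists were chosen with earlier results of these data in view.

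Olfm4, a secreted glycoprotein of crypt base stem cells, had the highest ratio in WT. It stood at 357 CPM in Lgr5-positive and 46.1 CPM in Lgr5-zero cells, a log2 ratio of 2.93 (2.74 to 3.12), and was seen in 36 of 116 and 81 of 1092 cells. Clca3b, a chloride channel accessory gene, stood at 94.0 and 12.1 CPM (log2 ratio 2.86). Smoc2 stood at 214 and 54.3 CPM (log2 ratio 1.96, 1.74 to 2.17) and Slc12a2, a sodium, potassium and chloride cotransporter of crypt cells, at 669 and 191 CPM (log2 ratio 1.81, 1.69 to 1.93). The cell-cycle gene Cdca7 stood at 68.1 and 22.5 CPM (log2 ratio 1.55), Rgmb at 64.7 and 19.3 CPM (log2 ratio 1.69), and the transcription factor Sox9 at 129 and 69.7 CPM (log2 ratio 0.88). All of these were higher past 1.5-fold, and Nrn1 was within it, at 51.7 and 43.3 CPM. Ascl2, the factor that defines the stem cell state, was nearly silent in WT, with 7 UMIs in positive and 5 UMIs in zero cells.

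Few Wnt signalling genes reached 50 CPM in WT. Of these Axin2 and Lgr4 were higher past 1.5-fold, but both reached 50 CPM only in the positive cells, where they are high. Fzd5 and Tcf7l2, at that level in both classes, were within 1.5-fold. Over all members the 12 Wnt feedback genes summed to 117 CPM in positive and 59.2 CPM in zero cells. The 14 R-spondin and Wnt receptors summed to 241 and 187 CPM. None of 3 destruction complex genes was past 1.5-fold. Axin2, a scaffold of the destruction complex and the classical feedback target, stood at 54.3 CPM in Lgr5-positive and 15.9 CPM in Lgr5-zero cells, a log2 ratio of 1.71 (1.28 to 2.12), and was the only 1 of 12 Wnt feedback genes to reach 50 CPM. Lgr4, the more widely expressed R-spondin receptor, stood at 64.7 and 37.0 CPM (log2 ratio 0.79), whereas the Wnt receptor Fzd5 stood at 86.2 and 75.8 CPM (log2 ratio 0.18). Tcf7l2, the main Tcf factor of the intestine, was level at 64.7 and 64.4 CPM. Ifitm3, an interferon-induced membrane protein, stood at 71.6 and 13.6 CPM (log2 ratio 2.32), and Sox4, a transcription factor of progenitor cells, at 373 and 112 CPM (log2 ratio 1.72).

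Itln1, an intelectin listed here as a Paneth cell marker, was 755 CPM in Lgr5-positive and 110 CPM in Lgr5-zero WT cells (log2 ratio 2.77). It was seen in 37.1% and 13.7% of cells, and its level was 110, 437, 1169 and 2422 CPM in cells with 0, 1, 2 and at least 3 Lgr5 UMIs. The other Paneth genes did not share this: Lyz1 had 6 UMIs and the defensin Defa24 had 4 UMIs in all 116 Lgr5-positive WT cells. At the low end were hormone genes of enteroendocrine cells. Cck stood at 2.59 CPM (3 UMIs) in positive and 1085 CPM in zero cells, and Gcg at 0.862 CPM (1 UMI) and 561 CPM. Pyy and Scg2 were at 0 in the positive cells. Cyp2c29, an enzyme of enterocytes, stood at 5.17 and 302 CPM (log2 ratio -5.62).

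How far the WT contrast rests on differentiated cells was measured by leaving out cells in which enterocyte, Paneth or goblet cell markers took at least 1% of UMIs, together with Npy-positive cells. This left 97 Lgr5-positive and 382 Lgr5-zero WT cells. Cells rich in enteroendocrine markers were not left out, and Cck stood at 2.06 CPM in the positive and 2900 CPM in the zero cells that remained. The share of genes higher past 1.5-fold was then 1.68% (47 of 2802) and that of genes lower was 4.6% (129). The stem cell markers summed to 2118 CPM in positive and 1257 CPM in zero cells. Of 8 at 50 CPM in both classes 3 were higher past 1.5-fold and 0 lower, and Clca3b, Rgmb and Cdca7, at that level in the positive cells alone, were also past it. Axin2 kept a log2 ratio of 0.99, at 55.7 and 27.5 CPM, and Itln1 one of 1.54. The enteroendocrine markers, whose cells stayed in, summed to 226 and 7632 CPM.

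Cycling genes were nearer to level in this comparison. Over all deep WT cells the 14 mitosis genes summed to 730 CPM in positive and 408 CPM in zero cells, and the 12 S phase genes to 556 and 298 CPM. Of the mitosis genes at 50 CPM in both classes 2 of 3 were higher past 1.5-fold, and of the S phase genes 0 of 1. Mki67 stood at 124 CPM in positive and 75.5 CPM in zero cells (log2 ratio 0.71, 0.45 to 0.97), and the replication factor Mcm7 at 53.4 and 22.1 CPM (log2 ratio 1.24). Without differentiated and Npy cells the mitosis genes summed to 827 and 809 CPM and the S phase genes to 616 and 518 CPM, and 0 of 4 and 0 of 5 compared were past 1.5-fold, with medians of -0.11 and 0.24.

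**Figure D3:**
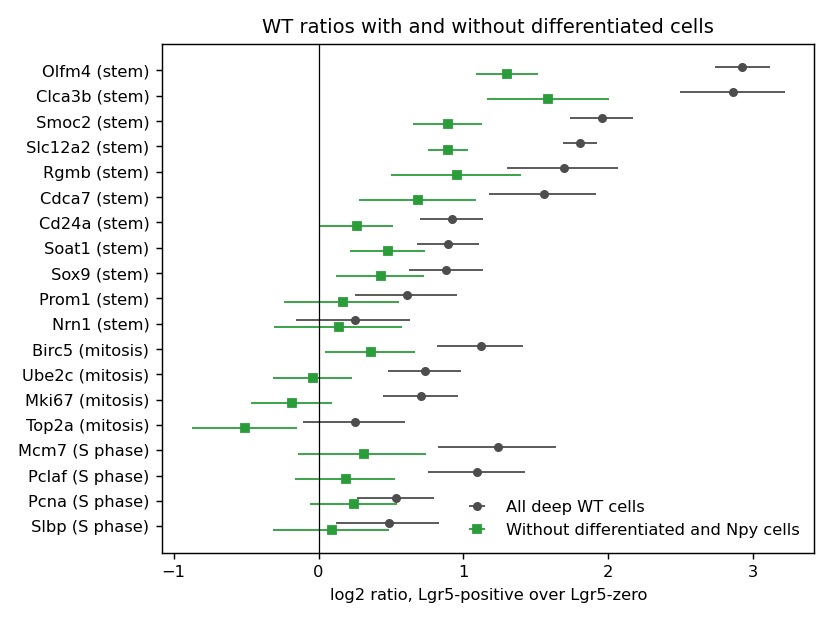
Log2 ratio of Lgr5-positive over Lgr5-zero WT cells (x axis) for stem cell markers, mitosis genes and S phase genes (y axis), in all deep WT cells (circles) and without differentiated and Npy cells (squares), with 95% intervals for counting error. The stem cell markers plotted stay above 0 in both, whereas the mitosis genes move to a median of -0.11.

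In LApc the contrast over all deep cells was smaller than in WT and of another kind. Without differentiated and Npy cells the shares of genes higher past 1.5-fold were near each other, 1.68% in WT and 1.37% in LApc. Those of genes lower were then 4.60% and 2.61%. Over all deep LApc cells 1.6% (52) of 3250 genes were higher past 1.5-fold in Lgr5-positive cells and 2.37% (77) were lower. Of 11 stem cell markers at 50 CPM in both classes, 4 were higher and 1 lower. Slc12a2 stood at 493 CPM in positive and 234 CPM in zero cells (log2 ratio 1.07), Cdca7 at 110 and 58.0 CPM (0.91), Smoc2 at 364 and 221 CPM (0.72) and Ascl2 at 80.5 and 52.3 CPM (0.61, 0.44 to 0.78). Lgr4 was also higher, at 111 and 72.4 CPM (log2 ratio 0.61, 0.46 to 0.75). The marker that was lower was Prox1, a transcription factor downstream of Wnt in intestinal tumours, at 354 CPM in positive and 556 CPM in zero cells (log2 ratio -0.65, -0.72 to -0.57).

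The Wnt feedback genes of LApc did not go with Lgr5. Of 11 at 50 CPM, 0 were higher and 4 were lower past 1.5-fold, with a median log2 ratio of -0.40. Notum, a secreted enzyme that inactivates Wnt ligands, stood at 262 CPM in positive and 407 CPM in zero cells (log2 ratio -0.63, -0.72 to -0.54), and the membrane inhibitor Apcdd1 at 182 and 306 CPM (-0.75). The secreted inhibitors Wif1 and Dkk3 stood at 98.8 and 150 CPM (-0.60) and at 60.5 and 113 CPM (-0.88). Nkd1, at 453 and 674 CPM (log2 ratio -0.57, -0.64 to -0.51), was just within the 1.5-fold limit. Axin2 was level at 427 and 416 CPM, as was Rnf43 at 140 and 136 CPM. Lef1 stood at 63.8 CPM in positive and 85.9 CPM in zero cells (-0.42, -0.60 to -0.25). Without the differentiated and Npy cells the list summed to 1725 and 2362 CPM, and 3 of the 9 genes at 50 CPM in both classes were lower past 1.5-fold.

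In LApcL no gene was higher past 1.5-fold (0% of 3240), and 0.648% (21) were lower. Over all settings run, the counts went from 0 to 19 higher and from 8 to 45 lower. The Wnt feedback genes summed to 1148 and 996 CPM, and all 7 compared, 6 of them at 50 CPM in both classes, lay above 0 with none past 1.5-fold. Nkd1 stood at 226 CPM in positive and 196 CPM in zero cells (log2 ratio 0.20, 0.12 to 0.29) and Notum at 95.5 and 79.5 CPM (0.26, 0.12 to 0.40). Lef1 stood at 61.6 and 46.9 CPM (0.39, 0.21 to 0.56), Dkk2 at 50.7 and 40.2 CPM (0.33) and Prox1 at 184 and 170 CPM (0.12, 0.02 to 0.21). For these genes the interval lay below 0 in LApc and above 0 in LApcL. Over all settings run, their LApc ratios stayed below 0 (Prox1 -0.93 to -0.27, Notum -0.89 to -0.34, Nkd1 -0.84 to -0.42). The LApcL ratios were less stable for Prox1 (-0.03 to 0.26), Notum (-0.02 to 0.50) and Nkd1 (0.0035 to 0.35). Those of Lef1 (0.20 to 0.50) and Dkk2 (0.15 to 0.50) stayed above 0. The difference between the libraries was not tested, since each genotype had 1 library. The zero cells of the 2 libraries also differed in Lgr5 (35.6% of LApcL and 14.6% of LApc zero cells with a UMI in the second set), and the part of this in the contrasts was not tested.

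**Figure D4:**
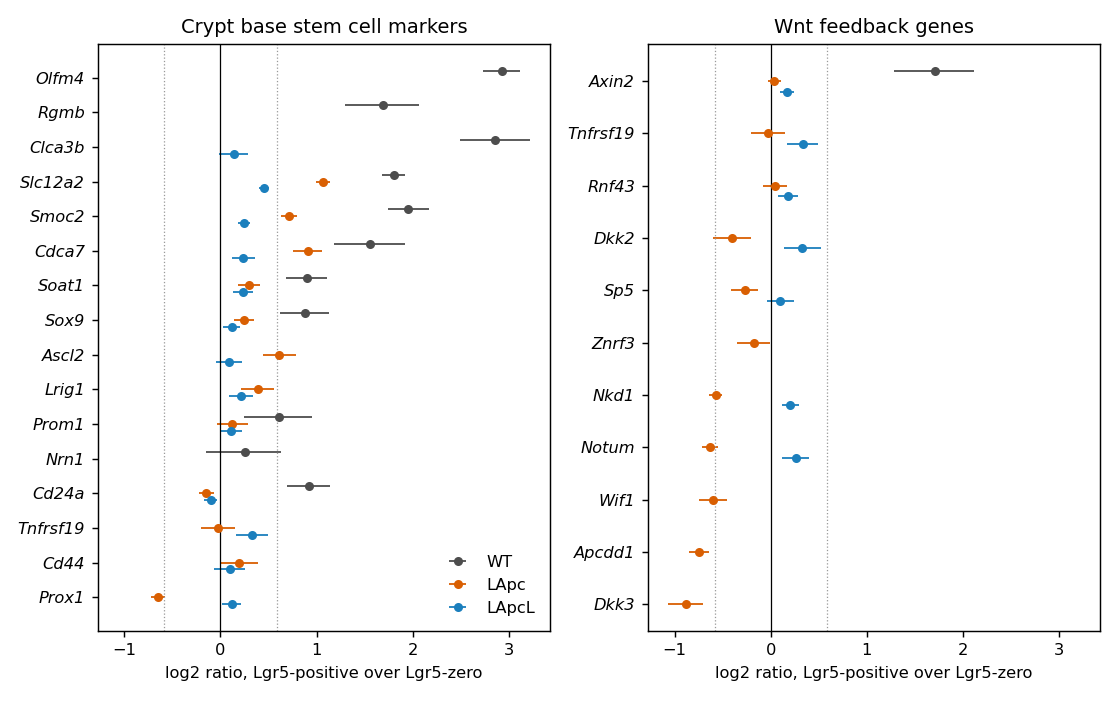
Log2 ratio of Lgr5-positive over Lgr5-zero cells (x axis) for crypt base stem cell markers and Wnt feedback genes with at least 50 CPM in a library (y axis), by library, with 95% intervals for counting error; dotted lines mark 1.5-fold. Stem cell markers such as Slc12a2, Smoc2 and Cdca7 are above 0 in all 3 libraries and nearer to 0 in LApcL, while Nkd1, Notum and Prox1 are below 0 in LApc and above 0 in LApcL.

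Levels by the number of Lgr5 UMIs describe the same cells and UMIs in finer classes, so they are no separate support for this split. In LApc cells with 0, 1, 2 and at least 3 Lgr5 UMIs (1680, 327, 92 and 62 cells), Nkd1 stood at 674, 490, 403 and 332 CPM. Notum stood at 407, 283, 234 and 197 CPM and Prox1 at 556, 384, 347 and 208 CPM. All 3 were lower at each further step. On GRCm38 Nkd1 lies on chromosome 8 (88521354 to 88594884, plus strand), Notum on chromosome 11 (120653788 to 120661175, minus strand) and Prox1 on chromosome 1 (190118035 to 190170714, minus strand). In LApcL (924, 526, 240 and 241 cells), Nkd1 stood at 196, 205, 208 and 293 CPM, Notum at 79.5, 79.5, 87.5 and 139 CPM, and Prox1 at 170, 166, 187 and 222 CPM, highest in the last class in each case. The first step was flat for Notum and slightly down for Prox1, and the rise was largest at the last step for all 3.

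Smoc2 (chromosome 17, 14279506 to 14404790, plus strand) and Slc12a2 ran in 1 direction in all 3 libraries. Smoc2 stood at 54.3, 183, 242 and 411 CPM in WT, at 221, 306, 415 and 597 CPM in LApc and at 398, 426, 472 and 568 CPM in LApcL. Slc12a2 stood at 191, 601, 738 and 1078 CPM in WT, at 234, 428, 551 and 750 CPM in LApc and at 556, 665, 796 and 942 CPM in LApcL. In the class with at least 3 Lgr5 UMIs the Smoc2 intervals of LApc (538 to 661 CPM) and LApcL (539 to 599 CPM) overlapped, and so did the Prox1 intervals (174 to 247 and 203 to 241 CPM), whereas the classes at 0 lay far apart. For Notum (163 to 235 and 124 to 154 CPM) and Slc12a2 (683 to 821 and 904 to 981 CPM) the intervals of this class did not overlap.

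**Figure D5:**
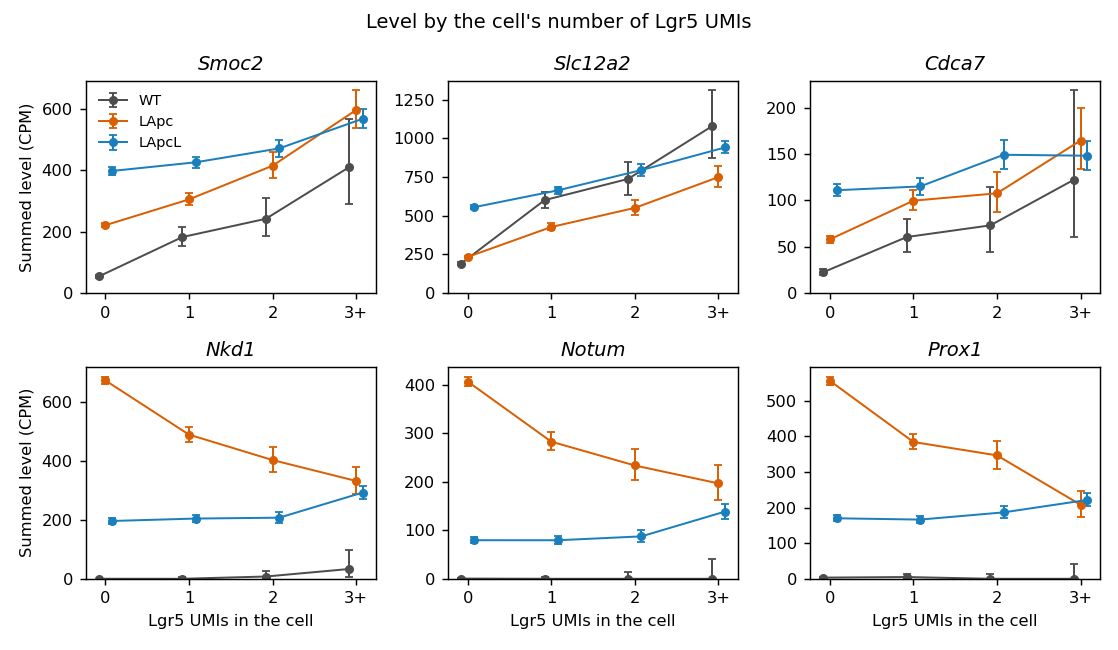
Summed level (y axis, CPM) of 6 genes in cells with 0, 1, 2 and at least 3 Lgr5 UMIs of 10000 (x axis), by library, with exact 95% Poisson intervals for counting error. Smoc2, Slc12a2 and Cdca7 are higher with more Lgr5 in each library (for Cdca7, the last 2 LApcL classes lie within each other's intervals), whereas Nkd1, Notum and Prox1 are lower with more Lgr5 in LApc only.

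No gene was past 1.5-fold in the same direction in all 3 libraries. Of 2294 genes compared in each, 406 had a log2 ratio above 0 in all 3 and 284 below 0 in all 3. Ranked by the smallest of the 3 ratios, a ranking made after the values had been seen, the leading genes were the mitochondrial dehydrogenase Aldh1b1 (0.58, 0.58 and 0.48 in WT, LApc and LApcL), Slc12a2 (1.81, 1.07 and 0.45) and the junctional adhesion molecule Jaml (0.99, 0.77 and 0.41). The transcription factor Nfia had 1.02, 0.47 and 0.36, and the growth gene Myc, a Wnt target, 0.57, 0.29 and 0.22. Areg, an epidermal growth factor ligand, led the genes below 0, with -1.45, -0.48 and -0.50. The cell cycle inhibitor Cdkn1a had -0.77, -0.52 and -0.26. Of the stem cell, Wnt feedback and receptor genes, Soat1, Cdca7, Lgr4, Prom1, Axin2, Sox9, Smoc2 and Slc12a2 reached 50 CPM and lay above 0 in all 3 libraries. By library (WT, LApc, LApcL), 11 of 11, 9 of 12 and 12 of 13 compared stem cell markers lay above 0. For Wnt feedback genes it was 1 of 1, 2 of 11 and 7 of 7. Over all genes it was 1642 of 2884, 1540 of 3250 and 1625 of 3240. The stem cell marker Cd24a lay below 0 over all settings run in LApc (-0.30 to -0.07) and LApcL (-0.26 to -0.05).

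Promoter sequences are shown for Cdca7 and Lgr4, whose intervals lay above 0 in all 3 libraries, for Axin2, whose interval did so in WT and LApcL but spanned 0 in LApc (-0.03 to 0.11), and for Sp5, another Wnt feedback gene. Sp5 stood at 111 CPM in positive and 135 CPM in zero cells of LApc (log2 ratio -0.27) and at 92.4 and 86.0 CPM in LApcL (0.10). The 250 bases before the start were taken from RefSeq (GRCm38.p6) and searched on both strands for the Tcf/Lef core motif CTTTGAT, which in the other strand reads ATCAAAG. No other motif was searched. The motif occurred in 3.21% of 32851 promoter entries, or in an entry of 3.72% of 27025 genes, and in those of 2 of the 32 stem cell, Wnt feedback, receptor and Tcf/Lef genes with an entry, of 49 in all (Sp5 and Tnfrsf19). Of the promoters below only that of Sp5 holds it, in capitals, from 104 bases before the start. A match describes these letters and not a bound site, and a window without it says only that these letters are not in it. The windows, each on the plus strand, are chr11:108920099-108920348 (Axin2), chr2:72475969-72476218 (Cdca7), chr2:109917397-109917646 (Lgr4) and chr2:70474673-70474922 (Sp5).
Axin2: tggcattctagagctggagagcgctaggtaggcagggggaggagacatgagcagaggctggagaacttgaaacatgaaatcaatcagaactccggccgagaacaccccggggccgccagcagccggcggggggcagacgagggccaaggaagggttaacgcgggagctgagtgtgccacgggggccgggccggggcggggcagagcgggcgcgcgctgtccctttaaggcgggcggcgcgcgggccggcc
Cdca7: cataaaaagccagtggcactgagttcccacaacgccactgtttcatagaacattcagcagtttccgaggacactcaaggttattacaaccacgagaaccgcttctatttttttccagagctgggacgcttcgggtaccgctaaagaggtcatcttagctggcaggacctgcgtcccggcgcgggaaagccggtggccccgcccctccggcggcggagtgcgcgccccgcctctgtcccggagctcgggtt
Lgr4: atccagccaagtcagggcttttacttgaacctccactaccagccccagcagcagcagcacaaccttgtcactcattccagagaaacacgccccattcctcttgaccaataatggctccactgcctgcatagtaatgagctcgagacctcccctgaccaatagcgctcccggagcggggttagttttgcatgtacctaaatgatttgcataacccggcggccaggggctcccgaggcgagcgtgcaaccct
Sp5: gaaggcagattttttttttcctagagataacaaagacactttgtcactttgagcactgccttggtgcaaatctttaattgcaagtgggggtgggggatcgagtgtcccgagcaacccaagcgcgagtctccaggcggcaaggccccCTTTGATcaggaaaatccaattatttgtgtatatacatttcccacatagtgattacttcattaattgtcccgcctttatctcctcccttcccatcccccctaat

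Several genes outside the lists were among the 8 highest ratios of LApc. Aqp1, a water channel, stood at 54.5 CPM in positive and 22.7 CPM in zero LApc cells (log2 ratio 1.23) and the signalling adaptor Tifa at 88.4 and 39.0 CPM (1.16). Rnase1 stood at 57.8 and 16.8 CPM (1.72). The hormone genes Chgb and Sct had ratios of 5.09 and 1.61, but 95.3% of the Chgb and 36.6% of the Sct UMIs came from 1 cell, and without it the log2 ratios were -0.22 and -0.47. The lowest were the chemokine Cxcl14, at 12.5 CPM in positive and 71.4 CPM in zero cells (-2.43), the surface protein Ly6d at 24.7 and 85.0 CPM (-1.74), the small heat shock protein Hspb1 at 37.4 and 116 CPM (-1.61) and the stress regulator Nupr1 at 48.2 and 122 CPM (-1.32). Nupr1 lay the other way in WT, at 348 CPM in positive and 198 CPM in zero cells (0.81).

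Paneth cell markers were lower in the Lgr5-positive cells of LApcL. They made up 6 of the 21 genes lower past 1.5-fold, and goblet cell markers another 2. Of 9 Paneth cell markers at 50 CPM 6 were lower past 1.5-fold and 0 higher. The antimicrobial enzyme Lyz1 stood at 201 CPM in positive and 503 CPM in zero cells (log2 ratio -1.32), and the defensins Defa22 at 474 and 1400 CPM (-1.56) and Defa30 at 303 and 978 CPM (-1.69). Defensin genes are near-identical copies, so the split of UMIs among them is uncertain. These levels sat in few cells: Lyz1 was seen in 5.46% of positive and 6.82% of zero cells. When cells with at least 1% of UMIs from differentiated markers were left out, Lyz1, Defa22 and Defa30 turned to log2 ratios of 0.38, 0.11 and 0.06. Mmp7, the protease that activates defensins, was level at 1072 and 1167 CPM and seen in 93.1% and 93.5% of cells. The genes with the highest ratios were the immunoglobulin receptor Pigr, at 254 and 172 CPM (0.56), and the ornithine aminotransferase Oat, at 147 and 102 CPM (0.52), both within 1.5-fold.

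Of 79 cytosolic ribosomal protein genes 0 were past 1.5-fold in any library, although their summed share in WT was 289730 CPM in positive and 250789 CPM in zero cells. The Bmp target Id3 followed the pattern of the Wnt feedback genes, at 458 and 677 CPM in LApc (log2 ratio -0.56, -0.63 to -0.50) and 393 and 338 CPM in LApcL (0.22, 0.15 to 0.29). The fetal-like and Yap target genes summed to 667 CPM in positive and 1718 CPM in zero WT cells (log2 ratio -1.36), most of it Areg, to 1249 and 1263 CPM in LApc (-0.02) and to 1433 and 1702 CPM in LApcL (-0.25). Ly6a, a gene of fetal-like epithelium, stood at 147 CPM in positive and 110 CPM in zero LApc cells (0.41) and at 350 and 477 CPM in LApcL (-0.45). Hopx, a reserve stem cell gene, had ratios of 0.45, 0.30 and 0.03 in WT, LApc and LApcL. Mitosis genes were level in both targeted libraries, with medians of 0.09 (4 genes) and -0.13 (9 genes) and none past 1.5-fold.

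Between genotypes, the Lgr5-positive cells of LApcL differed from those of LApc in fewer Wnt feedback transcripts and more mitosis transcripts. Of 3346 genes, 3.89% (130) were higher past 1.5-fold in LApcL and 4.21% (141) were lower. The 12 Wnt feedback genes summed to 1148 CPM in LApcL and 1924 CPM in LApc positive cells, and to 996 and 2552 CPM in zero cells. Of 7 at 50 CPM in both libraries 2 were lower and 0 higher in positive cells, and 3 of 6 were lower in zero cells. In positive cells another 4 reached 50 CPM only in LApc. Notum stood at 95.5 CPM in LApcL and 262 CPM in LApc positive cells (log2 ratio -1.45, -1.57 to -1.33), against -2.34 in zero cells, and Nkd1 at 226 and 453 CPM, against 196 and 674 CPM in zero cells (-1.77). Prox1 stood at 184 and 354 CPM (-0.94). Wif1 and Dkk3 had log2 ratios of -3.20 and -3.23. Axin2 (-0.31), Rnf43 (0.22), Sp5 (-0.27) and Dkk2 (-0.05) were within 1.5-fold. Lef1 itself had a log2 ratio of -0.05 in positive and -0.86 in zero cells.

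Stem cell markers tended the other way. Of 12 at 50 CPM in both libraries 2 were higher and 1 (Prox1) lower in positive cells, and of 11 in zero cells 6 were higher and 1 lower. Slc12a2 stood at 762 CPM in LApcL and 493 CPM in LApc positive cells (log2 ratio 0.63, 0.56 to 0.70). Clca3b, which reached 50 CPM in LApcL only and so is not among the 12, stood at 80.1 and 23.9 CPM (1.70). Smoc2 (0.37), Cdca7 (0.26) and Ascl2 (0.26) were within 1.5-fold in positive cells and had ratios of 0.84, 0.92 and 0.78 in zero cells. The 14 mitosis genes summed to 1058 CPM in LApcL and 670 CPM in LApc positive cells. All 4 at 50 CPM in both libraries were higher past 1.5-fold, among them Mki67 at 175 and 108 CPM (0.69) and Cenpf, a kinetochore protein, at 133 and 74.6 CPM (0.83). In zero cells the sums were 1146 and 641 CPM, and the same 4 were higher.

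The lowest ratios belonged to genes nearly silent in LApcL. The neuropeptide gene Npy had 1954 UMIs (406 CPM) in Lgr5-positive LApc cells and 0 in LApcL, at least 1364-fold lower, with the floor at 3 counts over the cell group. It was seen in 10.4% of the positive and 14.8% of the zero cells of LApc. Tpsb2, a tryptase, had 362 UMIs in LApc and 0 in LApcL positive cells, at least 253-fold lower. The growth factor Ptn stood at 456 and 0.894 CPM, the metallothionein Mt3 at 337 and 1.99 CPM and the proteoglycan Spock2 at 226 and 1.09 CPM. In the other direction Defa24 stood at 327 CPM in LApc and 2458 CPM in LApcL, Gm43305 at 50.3 and 350 CPM, Pigr at 40.1 and 254 CPM and the antimicrobial lectin Reg3g at 48.2 and 266 CPM.

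LApc against WT gave far more differences. Of 3419 genes in Lgr5-positive cells 30.7% (1049) were higher past 1.5-fold in LApc and 12.6% (432) were lower, and the median log2 ratio over all genes compared was 0.28. The 12 Wnt feedback genes summed to 117 CPM in WT and 1924 CPM in LApc positive cells. Axin2 was the 1 at 50 CPM in both libraries, and another 10 reached that level only in LApc. Axin2 stood at 54.3 CPM in WT and 427 CPM in LApc positive cells (2.95, 2.60 to 3.33). Notum had 0 UMIs in the 116 WT cells and 1262 in LApc, at least 101-fold higher, and Prox1 stood at 3.45 and 354 CPM. The stem cell markers summed to 2208 and 2532 CPM, and of 7 at 50 CPM in both libraries 4 were higher and 0 lower. Ascl2 stood at 6.03 CPM in WT and 80.5 CPM in LApc and Smoc2 at 214 and 364 CPM, but Olfm4 stood at 357 and 5.20 CPM (-5.85), Clca3b at 94.0 and 23.9 CPM (-1.93) and Rgmb at 64.7 and 20.6 CPM (-1.61). Slc12a2, at 669 and 493 CPM, was within 1.5-fold.

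The 12 enterocyte markers summed to 4190 CPM in WT and 35.8 CPM in LApc positive cells, and none reached 50 CPM in LApc. The sum in WT zero cells was 22388 CPM, and the part of free enterocyte RNA in the WT positive cells was not tested. Fabp1, a fatty acid binding protein, had 1060 UMIs (914 CPM) in WT positive cells and 0 in LApc, at least 1465-fold lower, and Cps1, the first enzyme of the urea cycle, had 316 and 0, at least 437-fold lower. The enterocyte markers took at least 1% of UMIs in 13 of the 116 positive WT cells. Ifitm1 had 0 UMIs in WT and 1373 CPM in LApc positive cells, at least 531-fold higher, and the fetal-like genes Ly6a and Clu stood at 0.862 and 147 CPM and at 0.862 and 95.6 CPM. The labels give 29 days after tamoxifen for LApc and 21 for WT, and this cannot be told apart from genotype.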

How the data were processed

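Per the file headers the deposited matrices hold whole-number UMI counts per gene and barcode, made by the authors from 10x Genomics 3′ libraries with Cell Ranger 6.0.1. The submitters' processing notes name Cell Ranger 2.1.1 and mm10 (GRCm38). The deposited counts are not normalized, and the 3 libraries held 87185429 (WT), 118867221 (LApc) and 112057783 (LApcL) UMIs over 32285 genes.

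Each deep cell was thinned once without replacement to 10000 UMIs (seed 1), and cells with at least 20000 UMIs gave a second set. UMIs were summed over a cell group and scaled to CPM. Ratios are log2 of CPM + 1 over CPM + 1 with exact conditional binomial intervals, levels have exact Poisson and shares Clopper-Pearson 95% intervals, and all cover counting error only. The pseudocount draws the ratios of low genes towards 0, except where a gene is at 0 in a group whose floor of 3 counts lies above 1 CPM (2.59 CPM in positive WT cells). There the ratio can exceed what the counts support, and bounds are given. A gene was compared where either group reached 50 CPM, without mitochondrial genes and Lgr5, and past 1.5-fold was the only call. Where members reached 50 CPM in 1 group only, a list is given by its sum over all members and by the members at 50 CPM in both groups. Sex-linked marker genes were left out between genotypes. Doublet scores were used only as an alternative: Scrublet (scanpy 1.11.5) marked 0, 2 and 2 barcodes by its own threshold and so did not work, and the barcodes with the highest scores, 309, 366 and 496, were then left out at 0.8% per 1000 barcodes.

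Named were members of the stem cell, Wnt feedback, receptor and Tcf/Lef lists, the most abundant members of other lists, and the genes with the most extreme ratios of each comparison (8 at each end within a library, 5 between genotypes). The members and lists were chosen with earlier results of these data known. The rule covers 1 gene that is left out. The thinning and ratio steps were tested on simulated data. Computations used Python 3.11.15, numpy 2.4.6 and scipy 1.17.1.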

Additional observations from a re-analysis of the deposited data

Results flagged for a closer look

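Several results differed in direction between libraries by at least 1.5-fold with intervals on opposite sides of 0. None of these differences was tested, since each genotype had 1 library. The summed log2 ratio of Lgr5-positive over Lgr5-zero cells was 0.97 in WT, -0.41 in LApc and 0.20 in LApcL for the Wnt feedback genes, and 0.50 in WT and -0.39 in LApc for Bmp ligands and targets. It was 0.90 in WT and -0.13 in LApcL for S phase genes, and 0.84 and -0.12 for mitosis genes. Without differentiated and Npy cells the median of the mitosis genes was -0.11 in WT and -0.15 in LApcL, so by the median this difference in direction was lost. Their sums in WT were then nearly level, slightly higher in positive cells. The median of the S phase genes was then 0.24 in WT and -0.14 in LApcL, less than 1.5-fold apart. For Paneth cell markers the summed log2 ratio over all deep cells was 1.54 in WT, where Itln1 makes up most of the sum, 0.32 in LApc and -0.74 in LApcL. Goblet cell markers gave -0.68, 0.93 and -0.60, and enteroendocrine markers -3.86, 1.0 and 0.77, with few cells behind each value. In WT, enteroendocrine markers took at least 1% of UMIs in 1 positive and 35 zero cells.

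Stem cell, Wnt feedback, receptor and Tcf/Lef genes that lay below 0 in LApc and above 0 in LApcL in this way were Prox1 (-0.65 and 0.12), Lef1 (-0.42 and 0.39), Dkk2 (-0.40 and 0.33), Nkd1 (-0.57 and 0.20) and Notum (-0.63 and 0.26). Among the other listed or named genes, the Bmp target Id3 (-0.56 and 0.22), the homeobox gene Msx1 (-0.61 and 0.43), Ifitm1 (-0.67 and 0.20) and the aldolase gene Aldoc (-0.26 and 0.45) did so too.

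Lgr5 was also present in deep barcodes that no comparison used because over 20% of their UMIs were mitochondrial. It was seen in 7.26% of 427 such WT barcodes, 25.1% of 295 LApc and 49.0% of 259 LApcL barcodes, where a count of 0 would allow 0.703%, 1.02% and 1.16%.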

How the results depend on the processing

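The order of the libraries in the share of Lgr5-positive cells was the same under every alternative run. At 2 Lgr5 UMIs or more the shares were 3.11% in WT, 8.40% in LApc and 34.2% in LApcL; with cells from 5000 UMIs they were 5.99%, 14.7% and 35.4%, and without thinning 21.2%, 44.8% and 79.1%. The WT share was 12.2% at no more than 10% mitochondrial UMIs and 20.3% without differentiated and Npy cells, against 22.9% in LApc, which leaves little of the gap between them. The log2 ratio of Lgr5 in the second set of UMIs, 3.23, 2.31 and 1.24, became 3.99, 2.77 and 1.60 at 2 UMIs or more, and in WT 2.61 at the stricter mitochondrial limit and 1.89 without differentiated and Npy cells, below the 2.36 of LApc, so the order of these libraries turned round.

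Counts of genes past 1.5-fold depended on the minimum level by construction. At 20 CPM they were 907 higher and 665 lower in WT, 104 and 149 in LApc, 10 and 35 in LApcL, 321 and 302 for LApcL against LApc, and 2184 and 794 for LApc against WT. At 200 CPM they were 64 and 119, 11 and 18, 8 lower in LApcL, 27 and 33, and 206 and 110. At 2 Lgr5 UMIs or more there were 627 higher in WT, 125 higher and 173 lower in LApc, and 19 and 45 in LApcL. Without differentiated and Npy cells there were 47 and 129 in WT and 1 and 8 in LApcL. In LApcL the counts were also 9 and 32 against cells without Lgr5 in both sets, 5 and 34 without thinning, 1 and 40 with shared barcodes kept, and 4, 2, 1 and 1 higher at 10% mitochondrial UMIs, without high doublet scores, with seed 2 and in the second set. Beyond the limits just named, the cause was not tested. The settings that use cells without Lgr5 in both sets, and those without the top cell of a gene, were chosen after seeing the data.

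Of 1670 values of named genes past 1.5-fold under alternatives, 1649 kept their direction. These leave out genes within 1.5-fold, such as Prox1 and Notum in LApcL, whose lowest log2 ratios over the settings were -0.03 and -0.02. In WT the mitosis median turned to -0.11 without differentiated and Npy cells, and Gip to 0.083 without high doublet scores. In LApc Chgb turned to -3.12 (seed 2), -0.73 (2 UMIs or more), -2.46 (shared barcodes kept) and -0.22 (without its top cell), Spink4 to -0.44 without thinning, and Sct to -0.60 (second set), -0.22 (2 UMIs or more), -0.065 (shared barcodes kept), -0.11 (doublet scores), -0.79 (without differentiated and Npy cells), -0.47 (without its top cell) and -0.82 (zero in both sets). In LApcL, without differentiated and Npy cells, Reg4 turned to 0.025, Defa30 to 0.064, Defa22 to 0.11, Gm15293 to 0.11, Lyz1 to 0.38 and Clps to 0.70; the cause was not tested. No paired analysis was possible because each genotype had 1 library. The WT comparison rests on 116 positive cells, with a floor of 2.59 CPM for a gene at 0.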
